A study of Mus musculus with 2 samples.

Results

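The nuclear genes of the mitochondrial respiratory chain and of ATP synthase were followed in fetal liver erythroid progenitors that over-expressed ESlncRNA, a long noncoding RNA of erythroid cells. Members were all non-control probes whose gene name begins with Nduf, Uqcr, Atp5, Cox4, Cox5, Cox6, Cox7 or Cox8, or is Sdha, Sdhb, Sdhc or Sdhd. This gave 121 of the 55681 probes on the array and 90 gene names. A test was possible for 118 probes of 87 genes, for which at least 1 channel stood well above background on each array, among 26790 probes of 19870 genes in all. The 3 genes that could not be tested were Cox7b2, Cox8b and Cox8c, isoforms of muscle or testis whose probes were not well above background in any channel on either array.

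Lineage-negative progenitors came from the livers of C57BL/6 mouse embryos at stage E14.5. Cells transduced with the vector alone or with ESlncRNA were sorted by their GFP, so both groups carry a construct and differ in ESlncRNA. Each of 2 two-colour arrays set total RNA of vector cells, in Cy3, against total RNA of ESlncRNA cells, in Cy5. No dye swap was made, so a dye effect of a probe enters both ratios alike. The labels do not say whether the replicates were separate cultures or embryos, so the p-values reflect only how far 2 arrays differ, and that may be technical variation. All values are log2 ratios of ESlncRNA over vector, as the mean ± SD over n = 2 arrays, normalized with loess. A gene was called where the Benjamini-Hochberg adjusted p of limma, over all probes tested, was under 0.05.

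The respiratory chain passes electrons from NADH through complex I, or from succinate through complex II, to ubiquinone, then through complex III, cytochrome c and complex IV to oxygen. Complexes I, III and IV pump protons across the inner mitochondrial membrane, and ATP synthase, complex V, uses that gradient to make ATP. Erythroid precursors depend on mitochondria for haem synthesis and discard them as they mature into red cells. Several subunits of complex IV exist in a widely expressed form and in a form restricted to muscle, lung or testis.

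ESlncRNA was over-expressed on both arrays. The lincRNA interval chr4:109071198-109078776 (mm9), which lies where RefSeq places this RNA between its neighbours Eps15 and Ttc39a, gave 2.22 and 2.19 (2.21 ± 0.024, adjusted p = 2.17e-07). Cell type markers differed between the groups. Of 9 erythroid markers, 8 were higher (median 0.66) and Alas2 was not called. All 8 granulocyte markers were lower, with a median of -4.83, as were all 7 macrophage markers tested (median -1.70) and all 6 megakaryocyte markers (median -1.78). Of 6 stem and progenitor markers 5 were lower and Kit was higher, and of 6 hepatocyte markers 5 were lower and Apoa1 was not called. The signs of the called markers held under median centring and with Agilent's processed signals. Their part in the values of the respiratory chain genes was not tested. In RNA from bulk cells, fewer cells of a type and less RNA per cell cannot be told apart.

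The probes for the members that stood highest, and those for isoform pairs, are shown by stretches of 30 bases, read in the direction of the transcript. The pair of Uqcrh probes overlaps over 53 bases and differs at 1 base, in capitals, so the 2 values of that gene are not separate sites. Counted from 1 at the 5′ end of the stretch, the difference is G12A, with the base of the brighter probe first. Both stretches lie at chr4:115739594-115739623 (mm9, minus strand).
Uqcrh, brighter probe: ctcttctgtgtGactagcagtgacttcatc
Uqcrh, other probe: ctcttctgtgtAactagcagtgacttcatc
The pair of Ndufb2 probes shares the following 30 bases without a difference, at chr6:39549396-39549425 (mm9, plus strand).
Ndufb2, both probes: aggtgagacatttcaagaaattacagactt
The isoform probes, by contrast, have little sequence in common. Over 10 pairs of probes of different isoforms, the longest shared run was 4 to 7 of 60 bases.
Cox6a1, widely expressed: ggaccacgaaaaccctttggatgctaagct
Cox6a2, heart and muscle: agcaatcttcaaattggccttctgcacacc
Cox7a2, widely expressed: ctttggggatcaatatttattgatgtgtat
Cox7a1, heart and muscle: acaacgtcctgtacagactgaccatgacgc
Cox6b1, widely expressed: aggagtcaggatggctgaagacatcaagac
Cox6b2, testis: ggaactttcccgggcaaaatatgaccttgc
The Cox6a1 stretch lies at chr5:115795756-115795785, that of Cox6a2 at chr7:135349190-135349219, that of Cox7a2 at chr9:79603245-79603274 and that of Cox6b2 at chr7:4703518-4703547, all on the minus strand of mm9. The probes of Cox7a1 and Cox6b1 span a splice junction, from chr7:30970337-30970948 and chr7:31409575-31411071.

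After loess, the respiratory chain and ATP synthase genes lay close to 0 in a comparison in which many other genes did not, while with each array centred on its median instead most of them lay above 0. Their median after loess was 0.04, against -0.03 for all genes tested and -0.01 for the brightest 25% of genes, and their ratios ran from -0.52 for Ndufaf3 to 0.59 for Uqcrh. At least 1.5-fold was reached after loess by 1 of 87 genes, Uqcrh, where 18.4% of all genes tested and 11.5% of the brightest 25% of genes reached it in either direction. Cox6a1 fell just short of it at 0.58. None of the 87 changed 2-fold or more after loess, where 9.35% of all genes and 4.73% of bright genes did. Of the 87 genes, 79 (90.8%) belong to the brightest 25% of genes by mean intensity, so the bright genes are the closer background.

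Smaller differences went both ways. Of the 87 genes, 23 were higher, where 26.3% of all genes and 29.2% of bright genes were, and 24 were lower, where 36.8% and 33.2% were. The other 40 were not called. The share called higher among the members is thus close to the background. Both arrays had the same sign for 77 of 87 genes, positive for 42 and negative for 35. The arrays differed by a median of 0.055 for a member gene, and by 0.31 at most, for Cox7a1.

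**Figure D1:**
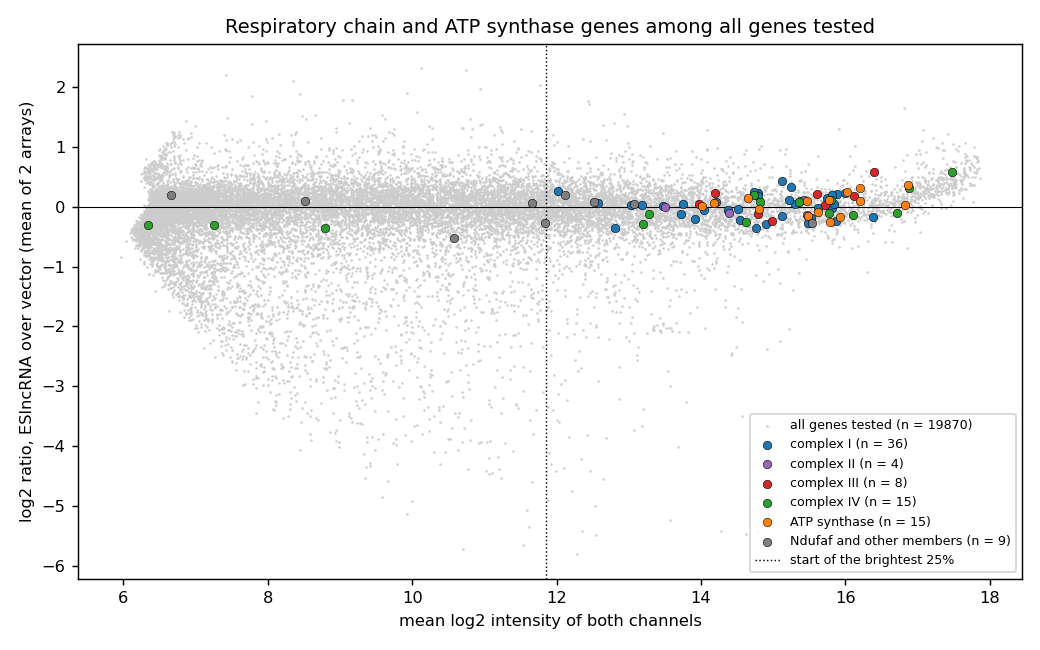
Mean log2 ratio of ESlncRNA over vector (vertical) against the mean log2 intensity of both channels (horizontal) for all 19870 genes tested (grey) and the 87 member genes, coloured by complex, after loess. The members lie among the bright genes between -0.52 and 0.59, while other genes reach down to -5.81, and the brightest genes, where Cox6a1 lies, are mostly above 0.

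The direction of a small change depended on the normalization, for the members and for bright genes at large. With each array centred on its median and no loess, the median of all genes was 0.34, that of the brightest 25% of genes 0.74 and that of the members 0.82. In that setting 83 of the members were called higher and 1 lower, where 63% of all genes and 91.3% of bright genes were called higher, and 18.3% and 4.85% lower. Of the 24 genes called lower after loess, 20 were called higher there. At least 1.5-fold was then reached by 74 members (85.1%), where 41.1% of all genes and 71.1% of bright genes reached it, and 2-fold by 27 (31%), where 14.4% and 24.6% did. With Agilent's processed signals the member median was 0.06 and 19 were higher and 9 lower, where 34.3% of all and 26.9% of bright genes were higher, and 23.7% and 20% lower. In that setting 2 members, the dim genes Cox6a2 and Ndufa4l2, passed 1.5-fold and 0 passed 2-fold, where 31.8% of all and 10.6% of bright genes passed the first and 17.9% and 4.37% the second. Of the genes called after loess, 15 of the 23 higher and 8 of the 24 lower kept their call with the processed signals, and the other 24 were not called. Calls were also gained there: Ndufa8, Ndufaf4, Atp5s and Cox4nb were called higher and Cox4i1 lower. Measured from the median of the brightest 25% of genes, the members' median was 0.05, 0.07 and 0.02 higher under loess, median centring and processed signals. Below, "relative" values are such differences from the bright genes' median, given in that order of settings.

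**Figure D2:**
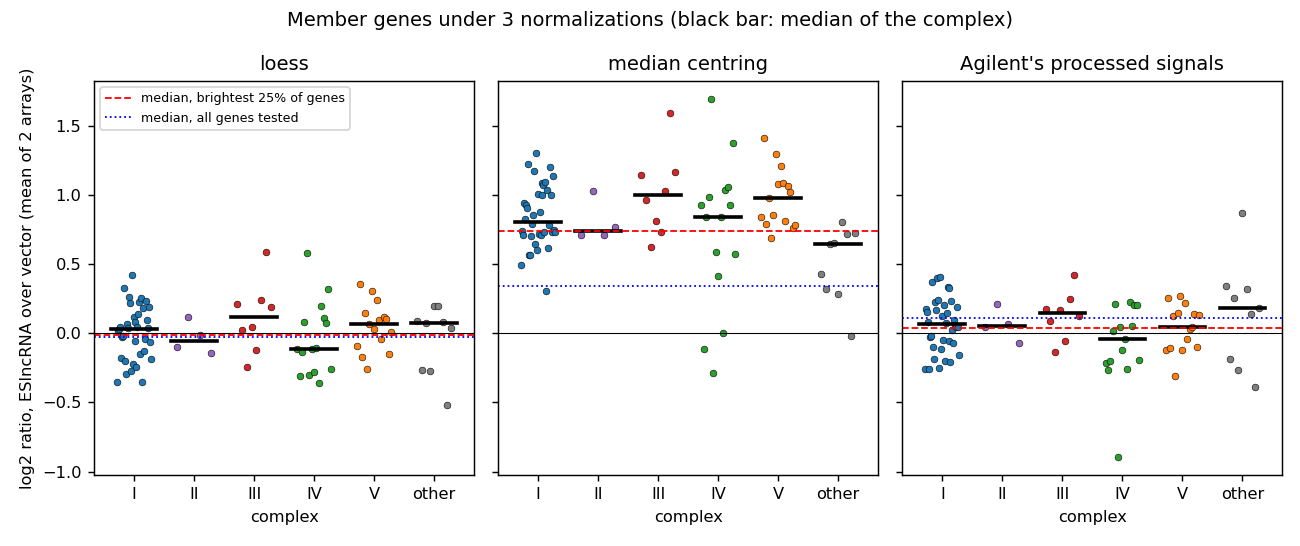
Mean log2 ratio of each of the 87 member genes by complex under loess, median centring and Agilent's processed signals, with the median of each complex as a black bar. The members move up with the brightest 25% of genes (dashed red line, at -0.01, 0.74 and 0.04), so that most genes lower after loess lie above 0 with median centring.

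The order among the members depended less on that choice. Over the 79 bright members, the ratios after loess ranked like those with median centring at a Spearman's rho of 0.869 and like those of the processed signals at 0.898. The 2 arrays ranked the members alike at 0.927. These values describe genes on the same arrays, which share signals and are not independent replicates. Above the bright genes' median in all 3 settings were 38 of the 79 bright members (48.1%), and below it in all 3 were 17 (21.5%). Of all bright genes, 36.8% were above it in all 3 and 37.7% below. The members had a median log2 intensity of 14.91, while the brightest 25% of genes start at 11.85. After loess, genes from 16 to 17 had a median of 0.05 and those of 17 or more 0.40. These shares and the relative values were not matched for intensity, and the part of brightness in them was not tested.

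Complex III had the highest median of the complexes, 0.12 over 8 genes, of which 4 were higher, 1 was lower and 3 were not called. Uqcrh, the hinge subunit that contacts cytochrome c1, gave 0.63 and 0.54 on arrays 1 and 2. It was higher (0.59 ± 0.065, adjusted p = 0.00012), and its second, overlapping probe gave 0.42. Relative to the bright genes, Uqcrh stood at 0.60, 0.85 and 0.38, and its lowest value over the 3 settings was above that of any other bright member. Uqcrfs1, the Rieske iron-sulfur protein, was higher on both arrays (0.25 and 0.23), as were the small subunits Uqcr10 (0.22 ± 0.061) and Uqcrq (0.19 ± 0.030). Uqcr10 (0.18) and Uqcrq (0.13) were not called with the processed signals, and a probe of Uqcr10 at another site of the transcript gave 0.02 and was not called.

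Uqcrb, a small subunit near the ubiquinone site, went the other way after loess, at -0.23 and -0.25 (-0.24 ± 0.019, adjusted p = 0.0052). All 3 of its probes were called lower, from -0.24 to -0.35, and they overlap in sequence. The dimmest probe differs from the others at 1 and 2 bases of the overlap. With median centring the value of Uqcrb was 0.63, and with the processed signals Uqcrb was not called (-0.13). Relative to the bright genes it stood at -0.23, -0.11 and -0.17. Uqcrh and Uqcrb, which sit in the same complex, were thus 0.86 apart on array 1 and 0.80 on array 2. Median centring gave a gap of 0.97 and the processed signals one of 0.56. The core subunit Uqcrc2 (-0.12, adjusted p = 0.067) and Uqcr11 (0.03) were not called, and Uqcrc1 had opposite signs on the arrays. Cytochrome c1, Cyc1, which the gene name rule leaves out, was not called either (0.02 ± 0.025).

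Complex I was split after loess. Of its 36 subunits 10 were higher, 10 were lower and 16 were not called, with a median of 0.03. With median centring all 36 were called higher, and with the processed signals 8 were higher and 4 lower. Ndufb2, an accessory subunit of the membrane arm, gave 0.48 and 0.37 and was 1.34-fold higher (0.43 ± 0.075, adjusted p = 0.00058). Its second probe gave 0.47, and relative to the bright genes Ndufb2 stood at 0.43, 0.57 and 0.36. Ndufa5, an accessory subunit of the matrix arm, was higher at 0.30 and 0.36 (0.33 ± 0.037), but its second probe, at another site of the transcript, was not called at 0.04. Ndufab1, the mitochondrial acyl carrier protein that also serves in complex I, was higher at 0.25 and 0.28.

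Ndufa1 and Ndufa7 were among the complex I subunits called lower after loess. Ndufa1, an X-linked accessory subunit of the membrane arm, gave -0.35 and -0.36 after loess and 0.49 with median centring, with relative values of -0.34, -0.25 and -0.30. Ndufa7, an accessory subunit, was -0.23 and -0.36 after loess, 0.57 with median centring, and -0.29, -0.17 and -0.22 relative to the bright genes. Ndufa1, Ndufa13, Ndufb7 and Ndufb11 were the subunits still called lower with the processed signals, and the other lower calls, that of Ndufa7 included, were lost there.

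After loess, the matrix arm held genes of both directions. In the module that oxidises NADH, the core subunits Ndufs1 (0.25 ± 0.039), which carries iron-sulfur clusters, and Ndufv1 (0.19 ± 0.022), which binds NADH, were higher, as was the accessory subunit Ndufs6 (0.24 ± 0.11). Ndufv1 and Ndufs6 were not called with the processed signals, at 0.19 and 0.10. The third core subunit of that module, Ndufv2, was not called (-0.06 ± 0.051), nor were Ndufs4 (-0.13 ± 0.0099), Ndufa2 (-0.02) and Ndufa12 (0.05). In the module that reduces ubiquinone, Ndufs3 was higher (0.19 ± 0.0097), while Ndufs7 (0.09) and Ndufs8 (0.04) were not called. Among accessory subunits of the matrix arm, Ndufa5 was called higher. Ndufa6 (-0.20 ± 0.013) and Ndufa7 were called lower after loess and stood at 0.57 each with median centring. The pair Ndufc1 and Ndufc2 of the membrane arm was called in opposite directions after loess, at 0.22 ± 0.063 and -0.15 ± 0.051, with 1.07 and 0.73 under median centring. Of the Ndufb subunits, which sit in the membrane arm, Ndufb10 (0.22 ± 0.088) and Ndufb9 (0.14 ± 0.0048) were also higher, the latter not called with the processed signals. Ndufb11 (-0.27 ± 0.010), Ndufb7 (-0.24 ± 0.028) and Ndufb3 (-0.22 ± 0.047) were lower after loess, and with median centring these 3 stood at 0.65, 0.71 and 0.60.

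Ndufv3, an accessory subunit of the matrix arm known in a short and a long splice form, had probes at separate positions, shown here because their values differ.
Ndufv3, transcript position 1164: gtgccagaaggaggctcccaggtccaggag
Ndufv3, transcript position 1517: ggtagaccccgatgttggttcccatgaatc
The first stretch lies at chr17:31665148-31665177 and the second at chr17:31668209-31668238 (mm9, plus strand). The probe at position 1164 gave -0.52 on both arrays (-0.52 ± 0.00072, adjusted p = 0.00015). The brighter probe at position 1517 gave -0.19 ± 0.0079. Both were called lower after loess, and the difference between them was not tested. Relative to the bright genes, the second stood at -0.18, -0.01 and -0.19.

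The 4 assembly factors of complex I named Ndufaf are not part of the finished enzyme. Ndufaf3, which acts early in assembly, was the lowest of all 87 genes after loess, at -0.49 and -0.54, or 1.43-fold lower (-0.52 ± 0.033, adjusted p = 0.00017). Median centring gave -0.02 and the processed signals gave -0.39. Ndufaf1, which helps build the membrane arm, was higher at 0.15 and 0.25. Ndufaf2 (0.08) and Ndufaf4 (0.04), the partner of Ndufaf3, were not called after loess. With the processed signals Ndufaf4 was called higher at 0.19.

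The 4 genes of complex II had a median of -0.05, with 0 higher, 1 lower and 3 not called. Sdhd, a membrane anchor, was lower after loess at -0.15 and -0.14 (-0.14 ± 0.011, adjusted p = 0.038) and stood at 0.77 with median centring. It was not called with the processed signals (-0.07), and relative to the bright genes its sign changed between settings. Sdha, the flavoprotein, was -0.10 ± 0.036 and Sdhc, the other anchor, -0.01 ± 0.046, and neither was called. Sdhb, the iron-sulfur subunit, gave 0.12 ± 0.092 with its brightest probe, which was not called. Its second probe, at another site, was called lower at -0.23 ± 0.064.

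Complex IV had the lowest median after loess, -0.11 over 15 tested genes of 18, with 3 higher, 6 lower and 6 not called. Under median centring its median was 0.84, above those of complexes I (0.81) and II (0.74), and with the processed signals -0.04. Of the 6 lower genes, 5 were restricted isoforms or the subunit Ndufa4, described with the isoforms, and the other was Cox5a (-0.14 ± 0.022), 0.84 with median centring. Of these 6, only Cox4i2 was still called lower with the processed signals. Among them, Cox6a2 was kept only through the vector channel. The other wide subunits Cox5b (0.08 ± 0.12), Cox6c (-0.10 ± 0.029) and Cox7c (0.08 ± 0.039) were not called. Cox6a1 was highest, at 0.68 and 0.48 (0.58 ± 0.14, adjusted p = 0.00032), and Cox8a followed at 0.34 and 0.30 (0.32 ± 0.032). The second probe of Cox8a, at another site, gave 0.12 ± 0.14 and was not called. Cox6a1 was not called with the processed signals (0.21) or with the 4 channels quantile normalized and fitted as separate samples (0.16). It was the only member with a mean log2 intensity of 17 or more. The 280 genes in that range had a median of 0.40 after loess, 96.8% of them were above 0, and the range was chosen after the values were seen. Uqcrh, by contrast, lay from 16 to 17, where 370 genes had a median of 0.05, and Ndufb2 from 15 to 16, where 523 genes had a median of -0.04.

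**Figure D3:**
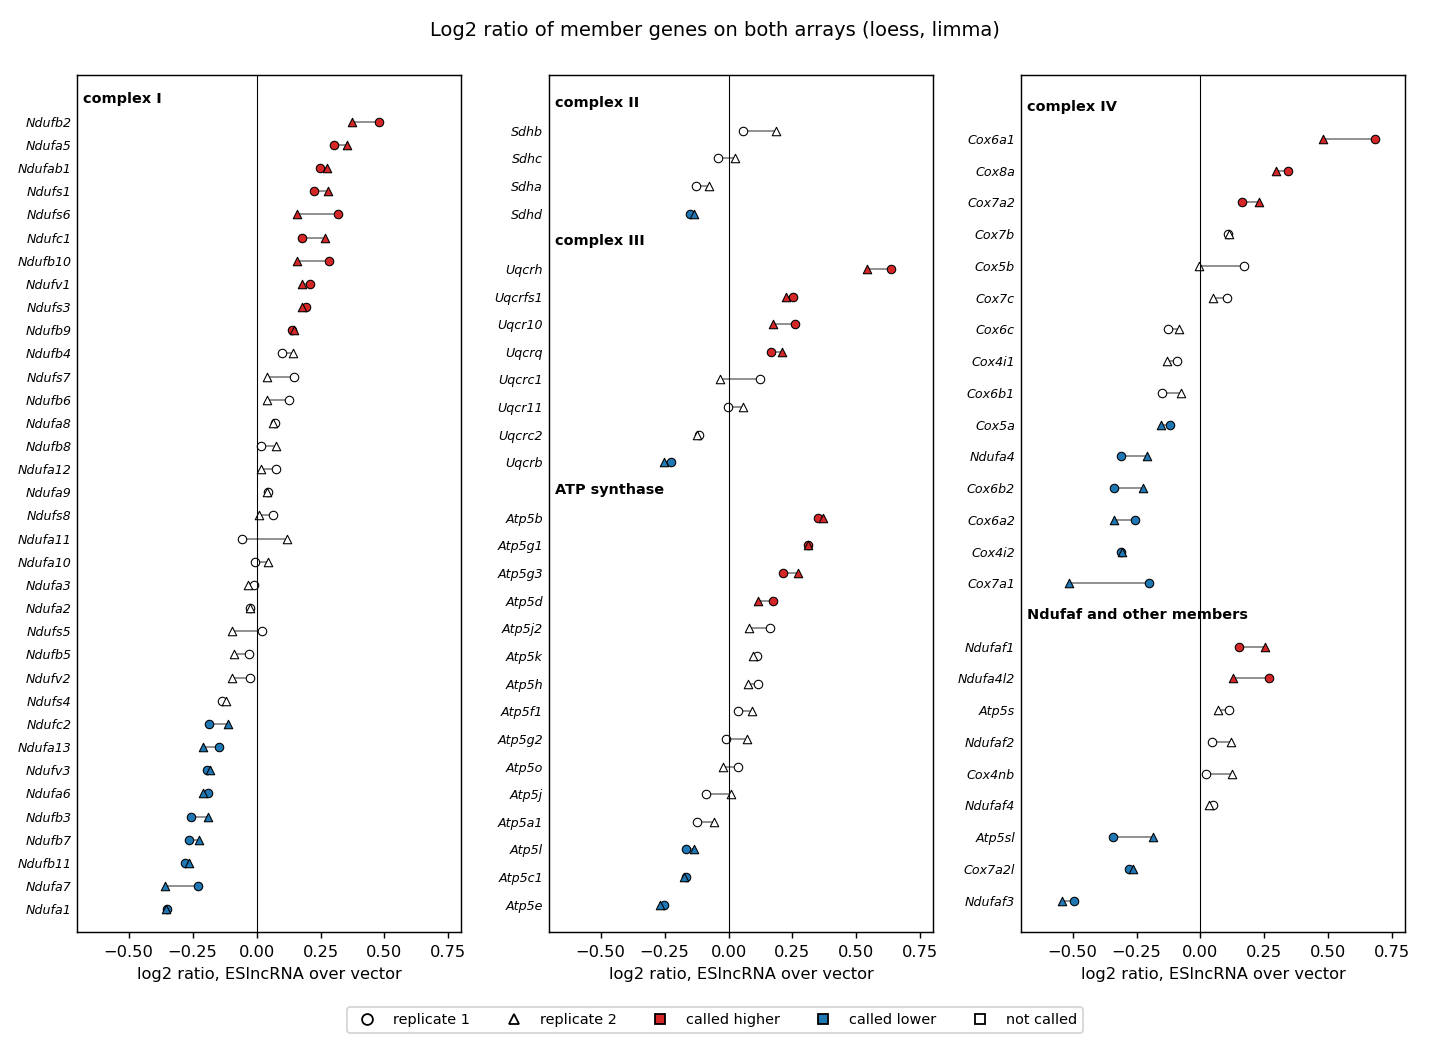
Log2 ratio of ESlncRNA over vector (horizontal) of member genes by complex after loess, with replicate 1 as a circle and replicate 2 as a triangle, filled red where called higher and blue where called lower. Each complex holds genes on both sides of 0, from Uqcrh at 0.59 to Ndufaf3 at -0.52, and the arrays lie close together except for Cox7a1 and Cox6a1. With median centring 20 of the 24 lower genes were called higher.

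The isoforms of complex IV were compared within each subunit, by the ratio of each gene and not by level. Cox6a2, the heart and muscle form of subunit 6a, was lower at -0.26 and -0.34, while Cox6a1 was higher. The ESlncRNA channel was not well above background for Cox6a2 on either array, so its change is a bound, at least 1.16-fold lower, and its vector signals were only 49.4 and 44 over backgrounds of 24 and 18. It was not called with the processed signals. Cox7a1, the heart and muscle form of subunit 7a, was lower at -0.20 and -0.52 (-0.36 ± 0.22, adjusted p = 0.0078), and Cox7a2, the wide form, was higher at 0.16 and 0.23. Cox7a1 was 0.0046 with median centring and was not called with the processed signals (-0.25).

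Cox4i2, the lung form of subunit 4, was lower at -0.31 on both arrays (-0.31 ± 0.0011), with -0.11 under median centring. It was dim, with vector signals of 109.4 and 100.6 over backgrounds of 19 and 18. Cox4i1, the wide form, was -0.11 ± 0.026 and was not called (adjusted p = 0.087). With the processed signals Cox4i1 was called lower at -0.21, and with median centring it was 0.93. Cox6b2, the testis form of subunit 6b, was lower at -0.34 and -0.22 (-0.28 ± 0.082) and Cox6b1 was not called (-0.11 ± 0.052). The Cox6b2 probe was far above background, with vector signals of 7482 and 6728 over 24 and 18. With median centring Cox6b2 was 0.41, with the processed signals it was not called (-0.12), and relative to the bright genes it stood at -0.27, -0.33 and -0.16. For subunits 7a, 4 and 6b the restricted form lay below the wide form on both arrays without overlap after loess. With the processed signals the forms of subunit 4 lay close together, at -0.27 for Cox4i2 and -0.21 for Cox4i1. Subunit 6a had the same order, but Cox6a2 was kept only through the vector channel and its value is a bound. Its wide form Cox6a1 lies among the brightest genes, which were mostly above 0 after loess. The differences within a pair were not tested.

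The pair of Ndufa4 and Ndufa4l2 had an order that turned with the normalization. Ndufa4, now counted as a subunit of complex IV, was lower at -0.31 and -0.21 (-0.26 ± 0.072) and its paralogue Ndufa4l2 was higher at 0.27 and 0.13 (0.20 ± 0.099). Ndufa4l2 was dim, with vector signals of 48 and 45.5, and with median centring Ndufa4, at 0.58, lay above Ndufa4l2, at 0.29. With the processed signals Ndufa4 was not called (-0.19) and Ndufa4l2 was higher at 0.87. Cox7b, the wide form of subunit 7b, was not called (0.11 ± 0.0026, adjusted p = 0.090), and the probes of its testis form and of the other forms of subunit 8 gave no tested value.

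**Figure D4:**
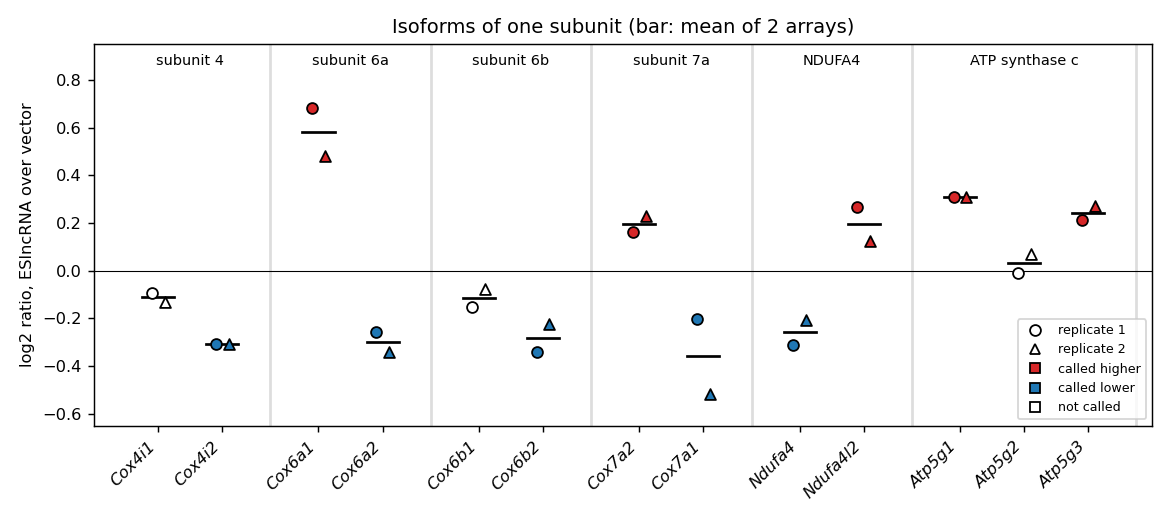
Log2 ratio of ESlncRNA over vector after loess for isoforms of one subunit, with replicate 1 as a circle, replicate 2 as a triangle and the mean as a bar, red where called higher and blue where called lower. Cox6a2, Cox7a1, Cox4i2 and Cox6b2 lie below their wide forms and Ndufa4l2 above Ndufa4. The value of Cox6a2 is a bound. With median centring Cox6b2 lies above 0 and Ndufa4 (0.58) above Ndufa4l2 (0.29).

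ATP synthase had a median of 0.06 over 15 genes, with 4 higher, 3 lower and 8 not called. With median centring all 15 were higher, and with the processed signals 2 were higher and 1 was lower. Atp5b, the catalytic beta subunit, was higher at 0.35 and 0.37, or 1.28-fold (0.36 ± 0.016, adjusted p = 0.00085), with relative values of 0.37, 0.67 and 0.21. The catalytic core pairs it with the alpha subunit Atp5a1, which was not called (-0.09 ± 0.044). Atp5g1, Atp5g2 and Atp5g3 encode the same mature c subunit of the proton-carrying ring behind different import sequences. Atp5g1 was higher at 0.31 on both arrays and Atp5g3 at 0.21 and 0.27, although Atp5g3 was not called with the processed signals. Atp5g2 was not called (0.03 ± 0.058), and its second probe was called lower at -0.21.

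Atp5e, Atp5c1 and Atp5l were the 3 subunits called lower after loess, and each was above 0 with median centring. Atp5e, the epsilon subunit of the central stalk, gave -0.25 and -0.27 (-0.26 ± 0.013) after loess, 0.69 with median centring, and -0.25, -0.05 and -0.35 relative to the bright genes. Atp5c1, the gamma subunit of the same stalk, gave -0.17 on both arrays and 0.79 with median centring, and its relative sign changed between settings. Atp5l, subunit g of the membrane part, gave -0.15 ± 0.022 with its brightest probe and 0.77 with median centring. Its other 4 probes, from -0.10 to 0.13, were not called. Those Atp5l probes that overlap differ from one another at 2 to 4 bases of the overlap. The delta subunit of the stalk, Atp5d, was called higher (0.15 ± 0.042), so genes of the stalk did not share a direction after loess. With median centring Atp5d (0.98), Atp5e and Atp5c1 were all called higher, and with the processed signals Atp5e alone of these 3 was called, lower at -0.31. The subunits Atp5f1, Atp5h, Atp5j, Atp5j2, Atp5k and Atp5o, most of them of the peripheral stalk and membrane part, were not called, from -0.04 for Atp5j to 0.12 for Atp5j2. The probes of Atp5k are placed on an unlocalised part of chromosome 1 in mm9, while RefSeq places the gene on chromosome 5.

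Among the 5 members whose names match the rule without being subunits, Cox7a2l was lower after loess with all 3 of its probes, from -0.27 to -0.42. With median centring its brightest probe gave 0.65. Atp5sl, an assembly factor of complex I, was lower (-0.26 ± 0.11), with 0.32 under median centring, and was not called with the processed signals (-0.19). Atp5s, a coupling factor of ATP synthase, and Cox4nb, a subunit of a complex of the endoplasmic reticulum, were not called after loess, at 0.09 and 0.07. With the processed signals both were called higher, at 0.35 and 0.25.

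Several probes were kept for 24 of the members, and the range between probes of a gene had a median of 0.156. For 13 of the 24 all probes had the same call. No gene had probes called in opposite directions. For Sdhb, Atp5g2 and Atp5j2 the brightest probe was not called and the other was called lower. For Atp5f1, Ndufb6 and Cox7c the brightest probe was not called and another was called higher, at 0.14, 0.19 and 0.25. That probe of Cox7c was dim, with vector signals of 48.5 and 42.3 over backgrounds of 21 and 18. For Atp5c1, Atp5l, Cox8a, Ndufa5 and Uqcr10 the brightest probe was called and another was not. The call of these 11 genes thus depends on the probe taken.

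Beyond the complexes, Sqor, Etfb and Atpif1 were the only tested genes of the other mitochondrial lists whose loess ratios lay outside the range of the members. Of 73 tested genes on 5 lists, 24 were higher, 11 were lower and 38 were not called, with a median of 0.06. The loess shares over all genes, against which these counts and those of each list after loess stand, were 26.3% higher and 36.8% lower. Among bright genes they were 29.2% and 33.2%. With median centring 69 of the 73 were higher and 1 was lower. There 63% of all genes and 91.3% of bright genes were higher, and 18.3% and 4.85% lower. With the processed signals 34 were higher and 6 lower. In that setting 34.3% of all and 26.9% of bright genes were higher, and 23.7% and 20% lower. Among 24 further assembly factors 8 were higher and 3 lower. Atpif1, which inhibits ATP hydrolysis by ATP synthase, was 1.54-fold higher after loess (0.62 ± 0.13, adjusted p = 0.00020). Its size depended on the setting, with 1.71 under median centring and 0.32 with the processed signals, called higher in each. Bcs1l, which inserts the Rieske protein into complex III, was 1.42-fold lower (-0.50 ± 0.037) after loess and 0.08 with median centring, while its client Uqcrfs1 was higher. Bcs1l was still called lower with the processed signals (-0.33). Cox17, a copper carrier for complex IV, and Atpaf1 were not well above background.

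Among 8 electron carriers and feeding enzymes 2 were higher and 3 lower. Sqor, which passes electrons from sulfide to ubiquinone, gave -2.52 and -2.49, or 5.67-fold lower (adjusted p = 1.38e-07), far outside the range of the respiratory chain genes. Median centring gave -2.07 and the processed signals gave -2.45. Etfb, a subunit of the flavoprotein that takes electrons from fatty acid oxidation, was 1.63-fold lower (-0.70 ± 0.095) after loess and 0.20 with median centring. It was still called lower with the processed signals (-0.77). Its partner Etfa was not called after loess (0.01 ± 0.11). Cytochrome c, Cycs, was not called (0.01 ± 0.029).

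Of 13 enzymes of the citric acid cycle 4 were higher and 3 lower. Idh3a, the catalytic subunit of NAD-dependent isocitrate dehydrogenase, was higher (0.48 ± 0.034), as was citrate synthase, Cs, at 0.37 on both arrays (0.37 ± 0.00034). Of 14 tested regulators of mitochondrial biogenesis 5 were higher and 2 lower. Gabpb1, the partner of the ETS factor Gabpa, was lower (-0.41 ± 0.044) while Gabpa was higher (0.26 ± 0.0058), and Esrra, an orphan nuclear receptor, was lower (-0.36 ± 0.069). Under median centring Gabpb1 and Esrra were 0.15 and 0.21, and with the processed signals both were still called lower, at -0.28. Of 14 genes of the outer membrane and of protein import 5 were higher and 0 lower, led by the chaperone Hspd1 (0.52 ± 0.030), with Vdac2, a pore of the outer membrane, at 0.17 ± 0.011. Vdac2 was not called with the processed signals.

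**Figure D5:**
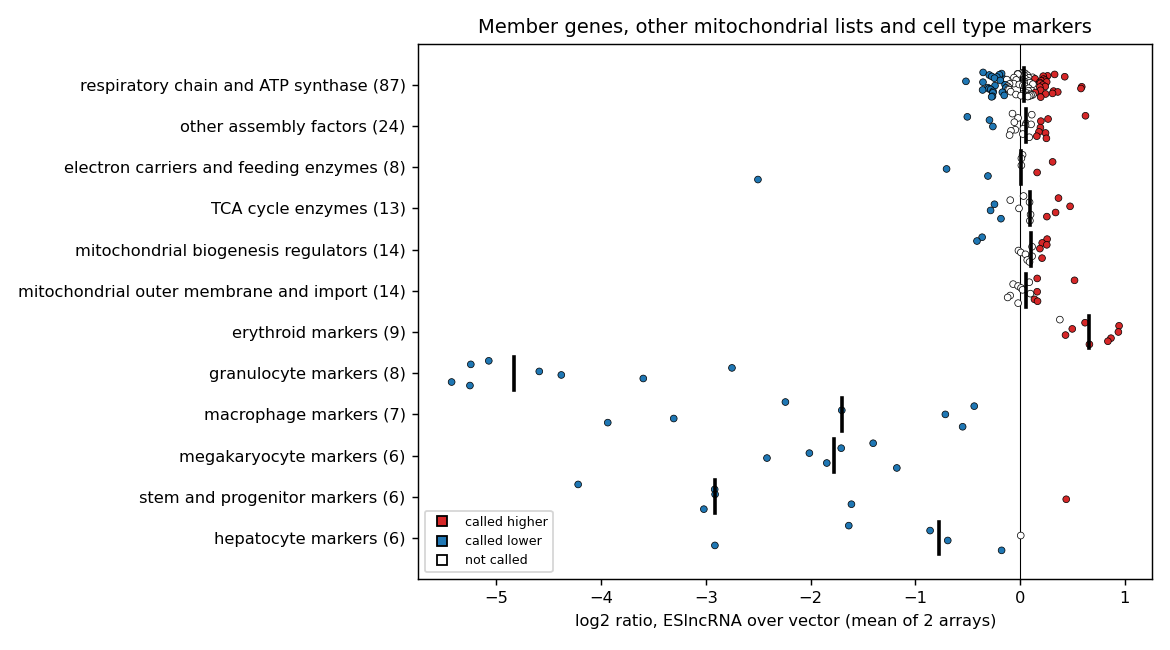
Mean log2 ratio of ESlncRNA over vector after loess for the 87 member genes, for 5 further mitochondrial lists and for cell type markers, with the number of genes tested in brackets and the median as a black bar. The mitochondrial lists lie near 0 apart from Sqor at -2.50, while granulocyte markers have a median of -4.83 and erythroid markers 0.66. With median centring the medians of the mitochondrial lists lie above 0.

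Promoters of the members were read from RefSeq (GRCm38.p6) because Nrf1 and the ETS pair of Gabpa and Gabpb1, known regulators of these genes, were on the lists. A promoter was found for 72 of the 87 tested genes. The 250 bases before the start are shown for the pair of genes with the highest ratios, with matches of either strand in capitals: GCGCATG, one arm of the palindrome that Nrf1 binds, and CCGGAAG for ETS factors. Where the Nrf1 word occurs on both strands in overlap, as in Cox6a1, the capitals run through.
Uqcrh: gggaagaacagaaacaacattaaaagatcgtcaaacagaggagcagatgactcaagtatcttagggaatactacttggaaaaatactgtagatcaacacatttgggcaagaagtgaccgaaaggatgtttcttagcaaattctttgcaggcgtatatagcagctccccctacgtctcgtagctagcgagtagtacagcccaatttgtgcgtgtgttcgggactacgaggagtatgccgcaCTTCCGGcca
Cox6a1: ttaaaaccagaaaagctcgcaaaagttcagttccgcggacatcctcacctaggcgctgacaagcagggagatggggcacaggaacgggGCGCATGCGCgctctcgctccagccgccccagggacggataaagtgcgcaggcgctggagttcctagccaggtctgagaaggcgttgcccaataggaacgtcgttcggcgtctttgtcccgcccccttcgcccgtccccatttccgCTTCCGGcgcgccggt
They lie at chr4:116075071-116075320 and chr5:115348959-115349208 on the minus strand. Of the 72 genes, with 78 windows between them, 11 (15.3%) had the Nrf1 motif and 13 (18.1%) the ETS motif, against 3.24% and 6.91% of 32851 promoter windows of the same length. A gene was counted if any of its windows matched, while the background counts single windows, so the units of the shares differ. The background windows were also not matched to the members by intensity or base composition. Genes that went up and genes that went down after loess both had the ETS motif, 4 of 19 and 4 of 20, and so did 5 of the 33 genes not called. The Nrf1 motif was in 1 of 19, 2 of 20 and 8 of 33. A match describes the letters of the window and is not a binding site.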

How the data were processed

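Gene expression was measured on 2 two-colour Agilent arrays. The scanner files that the authors deposited hold spot intensities from Feature Extraction (per the file headers, version 10.1.1.1), of which the mean signal and the median local background of each channel were used. As an alternative, the deposited intensities after the software's own background subtraction and dye normalization were used (processed signals). The deposited log10 ratios served only as a check of direction, and correlated at 0.986 and 0.992 with the processed ratios. The authors also deposited a table of log2 values. The submitters' processing notes name limma for it, and its version is not given in the sources used here. Their scale and direction were taken from a correlation of 0.99996 on both arrays with ratios made here by loess without background subtraction, and their medians were -0.02 and -0.01.

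Here the spot signals were corrected by normexp with an offset of 50, and ratios were normalized by loess within each array, with control and outlier-marked spots at weight 0 (284 and 308 of 59305 spots), in R 4.3.3 with limma 3.58.1. No spot was saturated. A probe was kept where each array had at least 1 channel well above background, and each gene is its brightest kept probe. An intercept was fitted with lmFit and eBayes (1 residual and 5.27 prior degrees of freedom) with Benjamini-Hochberg adjustment over all probes kept. Feature Extraction marked 52.1% and 49.1% of vector spots and 45.6% and 44.4% of ESlncRNA spots as well above background on arrays 1 and 2, and the number of arrays limits the precision. Both arrays share 1 slide and scan, so neither could be tested as a batch. The steps were tested on simulated data. Recovery was required there only for changes larger than any member ratio after loess, so passing it says nothing of the small differences reported here.

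Members, lists and tests were chosen with earlier results of these data known. Named were all tissue isoforms, the Sdh genes, the 3 highest and 3 lowest genes of complexes I, III, IV, V and of the Ndufaf factors, and the 2 genes of smallest p on each other mitochondrial list. Other genes were named after their values were seen. A gene that this rule names is not reported here, and stays in the counts and medians. Coordinates of probes are those of the array files (mm9), and the strand and position in the transcript are the files' own. Positions within coding sequence or UTR were not analysed here.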

Additional observations from a re-analysis of the deposited data

How the results depend on the processing

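Median centring in place of loess moved the members most. Their median rose from 0.04 to 0.82, with 83 genes higher and 1 lower. The medians became 0.81 for complex I, 0.74 for II, 0.999 for III, 0.84 for IV, 0.98 for V and 0.72 for the Ndufaf factors, and 0.73 for the other mitochondrial lists with 69 higher and 1 lower. Of the 38 members below 0 after loess 35 were above 0 there, and 0 went the other way. Among genes named by the rule, those that changed sign included Ndufa1 (0.49), Ndufa7 (0.57), Uqcrb (0.63), Uqcrc2 (0.73), Cox7a1 (0.0046), Atp5e (0.69), Atp5c1 (0.79), Atp5l (0.77), Cox4i1 (0.93), Cox6b1 (0.59), Cox6b2 (0.41), Ndufa4 (0.58), Sdha (0.71), Sdhc (0.71), Sdhd (0.77), Bcs1l (0.081), Etfb (0.20), Gabpb1 (0.15) and Esrra (0.21). With Agilent's processed signals the medians were 0.058 for all members, 0.068 for complex I, 0.056 for II, 0.15 for III, -0.041 for IV, 0.16 for the Ndufaf factors and 0.19 for the other lists, with 9 members and 6 genes of the other lists lower. A further setting had no replicate block: the 4 channels were quantile normalized in place of loess and fitted as separate samples. The normalization and the treatment of replicates thus changed together. The median of the members was 0.12 there, with 5 lower. The medians were 0.12, 0.056, 0.21, -0.037 and 0.17 for complexes I to V. They were 0.19 for the Ndufaf factors and 0.20 for the other lists, with 6 lower. In that fit Cox6a1 (0.16), Cox8a (0.19) and Uqcrb were no longer called. Normexp without an offset left 12 members and 13 genes of the other lists higher. Averaging a gene's kept probes gave medians of 0.021 for all members, 0.0089 for complex V and 0.022 for the Ndufaf factors. Without background subtraction they were 0.027 for complex I and 0.045 for the other lists, and with the deposited log2 values of the authors they were 0.022 and 0.045, with 15 genes of the other lists higher. Leaving out either array gave medians of 0.022 to 0.035 for all members, 0.020 to 0.028 for complex I, 0.11 to 0.14 for III, -0.12 to -0.084 for IV and 0.060 to 0.076 for the other lists, and 1 array allows no test or count of calls. For Cox6a2, Cox4i2 and Ndufa4l2 signals near background limit the size of the ratio. The cause of these shifts was not tested.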
